A study of Mus musculus with 30 samples.

Results

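Transcript levels of 4 glucose and monocarboxylate transporters, Slc2a1, Slc16a1, Slc16a3 and Slc16a4, were followed with age in mouse brain endothelial cells. The 4 genes were chosen by symbol among the 48795 genes of the count table, each matched a single identifier, and all 4 passed the filter on low counts. The cells were brain endothelial cells taken directly from wild-type (WT) mice that had received no treatment. The youngest mice were 2 months old and the oldest 24, with further groups at 6, 12 and 18 months, and each age had 3 male and 3 female libraries, 30 in all. No strain, no method of isolation and no statement on whether a library holds 1 mouse or a pool are given in the sources used here, so the spread between libraries may be that between pools. Libraries held between 24140980 and 50464366 reads assigned to genes (5 ages, 30 libraries), so that 3 reads, used here as the detection floor, correspond to 0.0594 to 0.124 CPM, the counts of a gene scaled to a common library size.

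Brain endothelial cells form the blood-brain barrier, and glucose, lactate and ketone bodies do not cross it freely but are carried by membrane transporters. Slc2a1 encodes GLUT1, the facilitative glucose carrier that supplies the brain from the blood and is among the most abundant proteins of brain capillaries. The SLC16 family holds the monocarboxylate transporters. Slc16a1 encodes MCT1, which moves lactate, pyruvate and ketone bodies together with a proton in either direction, and Slc16a3 encodes MCT4, best known as the lactate exporter of strongly glycolytic cells and as a target of hypoxia-inducible factors. Slc16a4 encodes MCT5, a family member whose physiological substrates are not settled. MCT1 and MCT4 reach the cell surface bound to the glycoprotein basigin, the product of Bsg.

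The libraries carried the labelled cell type. All 12 endothelial markers examined, among them the tight junction gene Cldn5 and the adhesion gene Pecam1, were detected in every library, and their summed level lay between 17745 and 23550 CPM. Transcripts of other cells were lower, with summed markers of 241 to 1375 CPM for astrocytes, 382 to 1221 CPM for pericytes and 2.56 to 10.7 CPM for neurons. Choroid plexus markers ranged most widely, from 152 to 6962 CPM. The share of reads that fell outside genes was 5.06% ± 0.97 (SD, n = 6) at 2 months and 10.4% ± 2.1 (SD, n = 6) at 18 months, and it is used below as a covariate. Because the RNA comes from bulk samples, fewer cells of a type and less RNA per cell cannot be told apart in any of the values that follow.

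On GRCm38 all 4 genes lie on the forward strand and code for protein. Slc2a1 (ENSMUSG00000028645.11) spans chromosome 4, 119108711 to 119137983. Slc16a1 (ENSMUSG00000032902.1) spans chromosome 3, 104638668 to 104658462, and Slc16a4 (ENSMUSG00000027896.15) lies on the same chromosome at 107291230 to 107312115. Slc16a3 (ENSMUSG00000025161.16) spans chromosome 11, 120948480 to 120960868. The kit does not keep strand, and the antisense gene Gm12868 shares 105 exon bases with Slc2a1. Gm12868 had a mean count of 54.4 reads, against at least 87529 reads for Slc2a1 in every library. Slc16a3 and Slc16a4 overlap no other annotated gene.

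Slc16a3 and Slc16a4 were the members that changed with age, in opposite directions. The bases upstream of their RefSeq start sites on GRCm38.p6 are shown to place the genes. Capitals mark the core of the hypoxia response element and its nearest variant, ACGTG or GCGTG, searched on both strands, where the pair differ. The Slc16a3 window is chr11:120948817-120949052 and the Slc16a4 window is chr3:107290980-107291229, both read 5′ to 3′ on the forward strand and ended before the first exon that the annotation places there. The Slc16a3 window lies inside the span of the gene given above, which begins at 120948480, and precedes a RefSeq start at 120949067. The Slc16a4 window lies in front of the annotated gene.
Slc16a3: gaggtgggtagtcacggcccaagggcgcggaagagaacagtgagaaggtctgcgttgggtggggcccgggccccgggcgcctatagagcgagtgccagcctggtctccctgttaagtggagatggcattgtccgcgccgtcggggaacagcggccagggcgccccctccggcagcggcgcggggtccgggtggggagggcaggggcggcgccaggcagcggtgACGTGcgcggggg
Slc16a4: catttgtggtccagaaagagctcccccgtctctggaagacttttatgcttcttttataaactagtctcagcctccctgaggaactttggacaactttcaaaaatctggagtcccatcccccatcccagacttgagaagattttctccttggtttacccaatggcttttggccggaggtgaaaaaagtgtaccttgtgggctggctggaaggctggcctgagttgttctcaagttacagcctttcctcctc
In the 236 bases of Slc16a3 there was 1 ACGTG, beginning 27 bases before the RefSeq start, and no GCGTG. The 250 bases of Slc16a4 held neither. For comparison, the 250 bases of Slc16a1 held 2 overlapping ACGTG, which together form 1 palindromic CACGTG, and 2 GCGTG, and the 216 bases of Slc2a1 held 1 GCGTG. Among 32851 mouse promoter windows of 250 upstream bases, 38.6% held at least 1 of the cores, 16.6% held ACGTG and 6.02% held CACGTG. The box GGGCGG was present in the windows of Slc2a1, Slc16a1 and Slc16a3, and in 32.7% of all windows. TATAAA was present, on both strands and overlapping itself, in the Slc16a4 window, and in 12.4% of all windows. These matches describe the letters and are not evidence of binding.

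The 4 transporters differed by orders of magnitude in level. Per kilobase of exon, which allows genes of different length to be compared, the mean over the 30 libraries was 1304 CPM per kb for Slc2a1, 283 for Slc16a1, 100.1 for Slc16a4 and 1.19 for Slc16a3. Slc2a1 made up 98.0% ± 0.4 (SD, n = 30) of the summed level per kb of the 12 SLC2 genes in the table. Among the 14 SLC16 genes, Slc16a1 made up 48.4% ± 5.5 (SD, n = 30), Slc16a4 17.4% ± 2.8, Slc16a9 7.73% ± 1.85 and Slc16a3 0.211% ± 0.134.

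**Figure D1:**
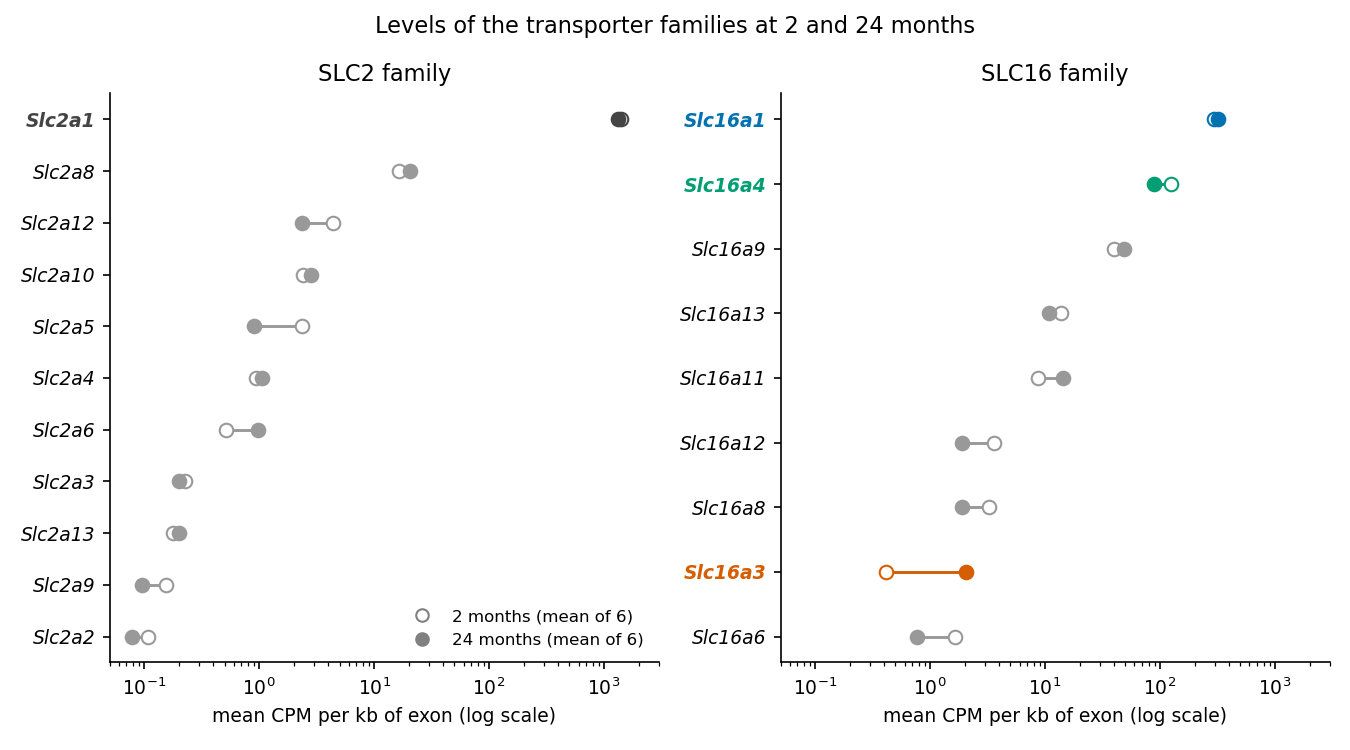
Mean level of each SLC2 gene (left) and SLC16 gene (right) in CPM per kb of exon on a log axis, at 2 months (open points) and 24 months (filled points), 6 libraries each; genes whose mean was under 0.05 CPM per kb at either age are not drawn, nor is 1 list gene. Slc2a1 and Slc16a1 lead their families at both ages, at 1415 and 1325 and at 297 and 323 CPM per kb, while Slc16a3 moved from 0.410 to 2.07 CPM per kb.

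Slc2a1, the glucose carrier, showed no change with age that passed the test. Its level had a lowest value of 3381, a median of 5055 and a highest value of 5918.5 CPM over the 6 libraries of 2 months. At 6 months the lowest, median and highest values were 3592, 4139 and 4895 CPM, at 12 months 3898, 4777 and 4935 CPM, at 18 months 3535, 4515 and 5172 CPM, and at 24 months 3801, 4305 and 5781 CPM. The libraries of every age overlapped those of 2 months, and no library of any later age lay outside the range of the 2-month libraries. The age means followed the order 6, 18, 24, 12 and 2 months, from 4211 ± 571 to 4962 ± 924 CPM (SD, n = 6 each). None of the 4 steps in that order passed an exact two-sided permutation test, with p-values of 0.5195 to 0.8615 and adjusted values of 0.852 to 0.983.

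The fitted slope of Slc2a1 on age, given here and below as the log2 change over the 22 months from 2 to 24 months with sex as a covariate, was -0.05 ± 0.11 (SE; edgeR quasi-likelihood test, adjusted p = 0.826). An interval of 2 SE on either side ran from -0.28 to 0.18, so that changes of that size are not excluded by these data. The change between 24 and 2 months was -0.10 ± 0.13 (adjusted p = 0.714). The lowest of the 30 libraries was a male 2-month library (replicate 1), which also had the highest summed markers of astrocytes (1375 CPM) and of microglia (1016 CPM). Without it the slope was -0.11 (adjusted p = 0.576), and the part of these in its Slc2a1 level was not tested.

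Slc16a1, the carrier of lactate and ketone bodies, likewise showed no change with age that passed the test, and it varied more between libraries than Slc2a1. Its coefficient of variation over the 30 libraries was 22.01%, against 15.3% for Slc2a1. The lowest, median and highest values were 1152, 1334 and 1535 CPM at 2 months, 712, 1152 and 1455 CPM at 6 months, and 966, 1337 and 1753 CPM at 12 months. At 18 months they were 823, 1008 and 1334 CPM and at 24 months 1103, 1323 and 1949 CPM. The age means did not follow age, since they ran in the order 18, 6, 2, 12 and 24 months, from 1078 ± 201 to 1430 ± 308 CPM (SD, n = 6 each). No step in that order passed, with exact permutation p-values of 0.1645 to 0.983 and adjusted values of 0.439 to 0.983.

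The slope of Slc16a1 was 0.10 ± 0.15 log2 over 22 months (adjusted p = 0.710, 2 SE on either side from -0.19 to 0.40), and the change between 24 and 2 months was 0.11 ± 0.15 (adjusted p = 0.760). The step from 18 to 24 months was 0.40 ± 0.15 with an unadjusted p of 0.0142 and did not pass after adjustment over all genes by edgeR (adjusted p = 0.192). In 2 ages the sexes did not overlap. At 6 months the male libraries held 1223, 1365 and 1455 CPM and the female libraries 712, 788 and 1082 CPM. At 12 months the male libraries held 1357, 1488 and 1753 CPM and the female libraries 966, 1080 and 1316 CPM. At 2, 18 and 24 months the sexes overlapped, and the share of all genes whose sexes separate at an age was not counted. Such separation was not particular to Slc16a1. It was also seen for Slc2a1 at 24 months (male 4337 to 5781, female 3801 to 4274 CPM). For Slc16a4 it was seen at 18 months (male 323 to 362, female 272 to 301 CPM). Over all ages the female level of Slc16a1 differed from the male by -0.23 ± 0.10 log2, which did not pass in edgeR (adjusted p = 0.573). The 3 female 6-month libraries also had 44.2 to 47.6% of their reads in genes longer than the median of the genes tested, against 51.7 to 56.0% in the male libraries of that age. At 12 months this share was 53.0 to 54.9% in the female and 46.6 to 56.2% in the male libraries. Its part in the Slc16a1 values was not tested.

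**Figure D2:**
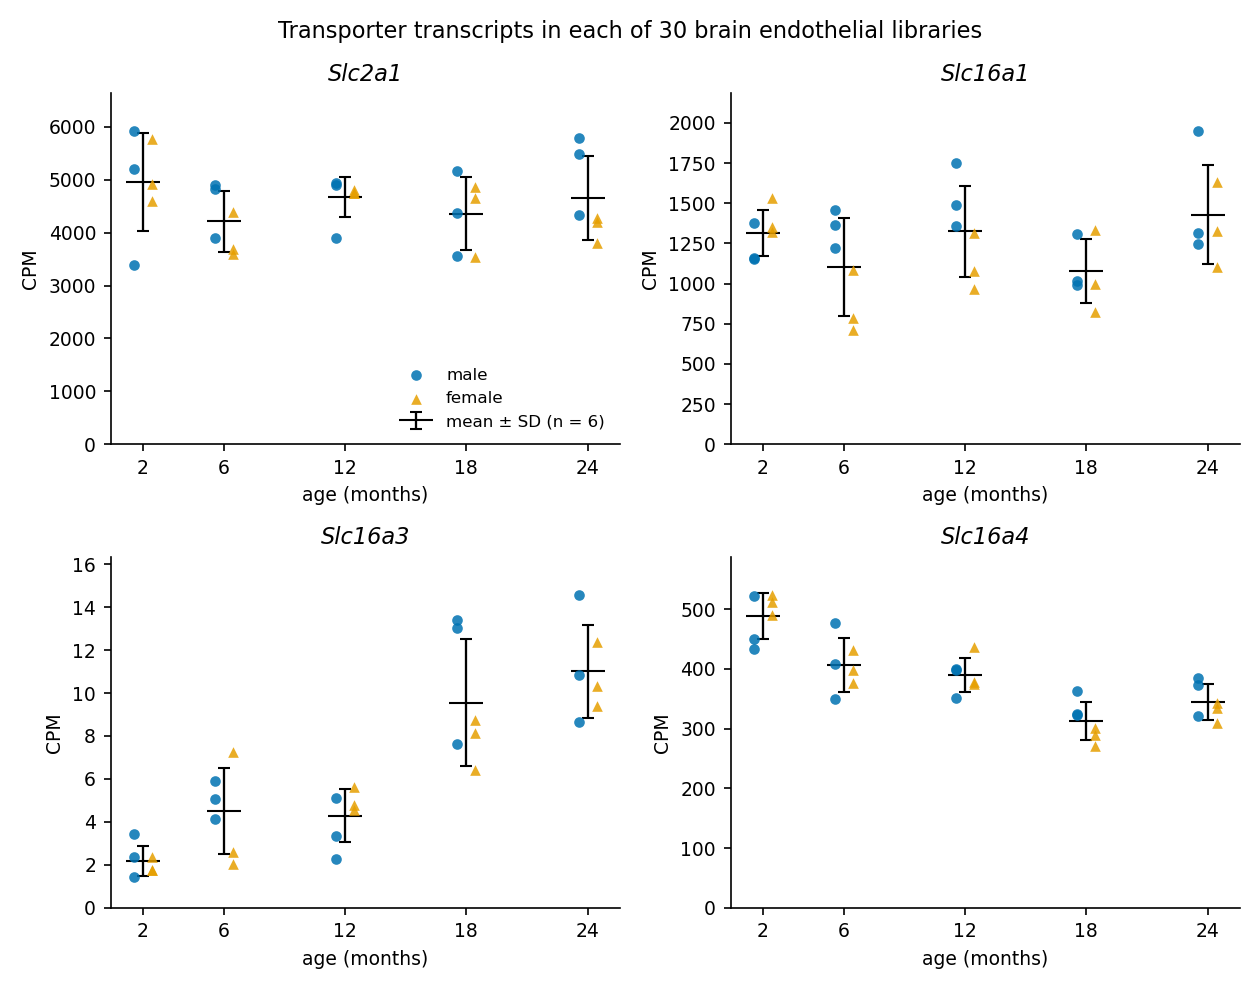
CPM of each transporter (vertical axis, from 0, a scale for each gene) against age in months, for 15 male (circles) and 15 female (triangles) libraries, with the mean and SD of the 6 libraries of each age. Slc16a3 lies at 6.40 CPM or more in every library of 18 and 24 months and at 3.43 CPM or less in every library of 2 months, Slc16a4 lies lower at 18 and 24 months than at 2 months, and the ages of Slc2a1 and Slc16a1 overlap.

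Slc16a3, the lactate exporter, was the rarest of the 4 and rose the most. At 2 months the male libraries held 1.45, 2.35 and 3.43 CPM and the female libraries 1.76, 1.77 and 2.35 CPM, from 42 to 86 reads. At 6 months the male values were 4.13, 5.07 and 5.92 CPM and the female values 2.02, 2.59 and 7.25 CPM. These 6 libraries were spread more widely than at any other age relative to their mean, with 1 female library above all others and the remaining females within the range of 2 months. At 12 months the male libraries held 2.29, 3.36 and 5.13 CPM and the female libraries 4.55, 4.78 and 5.65 CPM. At 18 months the male libraries held 7.64, 13.0 and 13.4 CPM and the female libraries 6.40, 8.12 and 8.73 CPM. At 24 months the male libraries held 8.63, 10.8 and 14.6 CPM and the female libraries 9.40, 10.3 and 12.4 CPM, from 341 to 710 reads.

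All libraries of 18 and 24 months were thus above all libraries of 2 months, and the ages of 6 and 12 months overlapped with 2 months. The share of all genes that separated in this way was not counted. The means rose from 2.18 ± 0.71 CPM at 2 months to 4.29 ± 1.24 CPM in the 12-month libraries, 9.55 ± 2.94 CPM in those of 18 months and 11.02 ± 2.16 CPM in those of 24 months (SD, n = 6 each), and the 24-month mean was 5.05 times the 2-month mean. The slope was 2.20 ± 0.27 log2 over 22 months (edgeR, adjusted p = 2.58e-06), the 188th highest of the 16844 genes tested. Of those genes 10.9% passed for a slope in either direction, 5.72% upward and 5.21% downward, and the median slope of all of them was 0.03.

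Against 2 months the fitted change of Slc16a3 was 1.05 ± 0.28 log2 at 6 months (adjusted p = 0.0192; 8.76% of genes passed), 0.997 ± 0.280 at 12 months (adjusted p = 0.0465; 2.94% passed), 2.12 ± 0.28 at 18 months (adjusted p = 5.65e-06; 18.8% passed) and 2.34 ± 0.29 at 24 months (adjusted p = 1.99e-06; 8.35% passed). Between successive ages the step from 12 to 18 months passed, at 1.13 ± 0.28 log2 (adjusted p = 0.00738; 13.2% of genes passed). The steps from 6 to 12 months (-0.05 ± 0.27, adjusted p = 0.964; 1.89% passed) and from 18 to 24 months (0.22 ± 0.27, adjusted p = 0.767; 1.26% passed) did not. The joint test for a departure from a straight line did not pass for Slc16a3 (adjusted p = 0.117), so a departure from a steady rise was not shown. In the order of means, 2, 12, 6, 18 and 24 months, the largest gap was that between 6 and 18 months, with an exact permutation p of 0.00433 and an adjusted p of 0.0693 over the 16 neighbouring pairs of the 4 genes.

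These intermediate calls were less secure than the slope. The call at 6 months was lost without female replicate 3 of that age (0.80 log2, edgeR adjusted p = 0.0837) and in 2 of 13 other alternatives, limma-voom (1.05 log2, adjusted p = 0.0582) and the fit without the 3 female 6-month libraries (1.15 log2, adjusted p = 0.05). The call at 12 months was lost in 21 of the 30 edgeR fits that each left out 1 library (adjusted p of 0.0183 to 0.109). It was also lost in 7 of 13 other alternatives (adjusted p up to 0.149), namely limma-voom, no filter on low counts, forward-strand counts, the share of reads outside genes as a covariate, no sex term, and the fits without the 18-month or the 24-month libraries. The step from 12 to 18 months was lost with the share of reads outside genes as a covariate (1.01 log2, adjusted p = 0.435), where 18 genes in all passed, and with the share of reads in longer genes as one (1.07 log2, adjusted p = 0.0634).

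Slc16a4 fell with age. At 2 months the male libraries held 433, 450 and 523 CPM and the female libraries 490, 512 and 524 CPM. At 6 months the male values were 349, 408 and 477 CPM and the female values 376, 398 and 432 CPM, and at 12 months the male values were 350, 397 and 399 CPM and the female values 375, 378 and 436 CPM. In each of these ages 5 of 6 libraries lay below the lowest library of 2 months. At 18 months the male libraries held 323, 324 and 362 CPM and the female libraries 272, 290 and 301 CPM. At 24 months the male libraries held 321, 373 and 385 CPM and the female libraries 310, 335 and 342 CPM. All 12 libraries of 18 and 24 months lay below all 6 of 2 months, a separation whose share among all genes was not counted.

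The Slc16a4 means were 489 ± 39 CPM at 2 months, 406 ± 45 CPM in the 6-month libraries, 389 ± 29 CPM in those of 12 months, 312 ± 32 CPM in those of 18 months and 344 ± 30 CPM in those of 24 months (SD, n = 6 each), and the 24-month mean was 0.705 times the 2-month mean. The slope was -0.53 ± 0.09 log2 (edgeR, adjusted p = 1.35e-04), the 1481st lowest of the genes tested. Against 2 months Slc16a4 changed by -0.27 ± 0.08 log2 at 6 months (adjusted p = 0.0414), -0.33 ± 0.08 at 12 months (adjusted p = 0.0248), -0.65 ± 0.08 at 18 months (adjusted p = 2.74e-06) and -0.51 ± 0.08 at 24 months (adjusted p = 1.17e-04). The step from 12 to 18 months was -0.32 ± 0.08 (adjusted p = 0.0109), while those from 6 to 12 months (-0.06 ± 0.08, adjusted p = 0.802) and from 18 to 24 months (0.14 ± 0.08, adjusted p = 0.446) did not pass. Slc16a4 was the 1 member with a departure from a straight line (adjusted p = 0.0317; 17.8% of genes passed). No neighbouring pair in its order of means, 18, 24, 12, 6 and 2 months, passed the exact permutation test after adjustment (lowest adjusted p = 0.0693, between 6 and 2 months).

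The Slc16a4 call at 6 months was lost in 6 of 13 alternatives (-0.34 to -0.22 log2 over the 13, edgeR adjusted p up to 0.296), namely upper-quartile scaling, no filter on low counts, reverse-strand counts, and the fits without the 18-month, the 24-month or the 3 female 6-month libraries. The call at 12 months was lost in 2 of 13, with no filter and with reverse-strand counts (adjusted p of 0.074 and 0.0539). The departure from a straight line was lost in 5 of 9, with no filter, with the counts of either single strand, with the share of reads outside genes as a covariate and without the 3 female 6-month libraries. Leaving out single libraries ended the call at 6 months in 13 and that at 12 months in 9 of the 30 edgeR fits, and the departure from a straight line in 11 of 30 (adjusted p up to 0.168, 0.0741 and 0.0765). With the share of reads outside genes as a covariate the change at 18 months was -0.36 log2 (edgeR adjusted p = 0.154). In that fit 214 genes in all passed at 18 months, against 3163 in the main fit. The step from 12 to 18 months was -0.09 with this covariate (adjusted p = 0.904), and -0.22 (adjusted p = 0.15) with the share in longer genes instead. With the outside-gene share the departure from a straight line was lost (adjusted p = 0.317). The changes over the whole span still passed in edgeR with that covariate, at -0.33 for the slope (adjusted p = 0.0211) and -0.39 between 24 and 2 months (adjusted p = 0.00255).

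**Figure D3:**
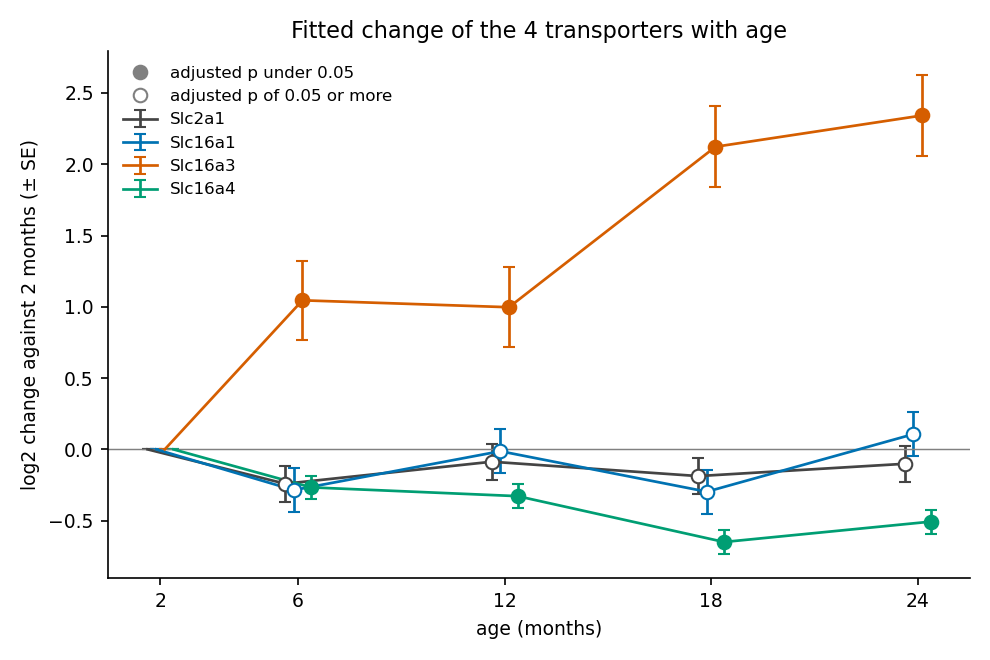
Fitted log2 change of each transporter against 2 months (vertical axis, with SE bars) at 6, 12, 18 and 24 months; filled points passed at an adjusted p under 0.05. Slc16a3 lies near 1 at 6 and 12 months and above 2 at 18 and 24 months, Slc16a4 falls to -0.65 at 18 months, and no point of Slc2a1 or Slc16a1 passed.

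The shares of single genes in the SLC16 transcripts are given for 2 and 24 months as a description, without a test. Slc16a4 went from 19.9% ± 1.1 of the summed level per kb at 2 months to 14.5% ± 1.1 at 24 months (SD, n = 6 each). Slc16a3 went from 0.0653% ± 0.0231 to 0.341% ± 0.076, and Slc16a1 was at 46.8% ± 2.8 and 52.1% ± 4.6. Even at 24 months the level of Slc16a3 per kb, 2.07 ± 0.41 CPM per kb, was far below that of Slc16a1 at 323 ± 70 CPM per kb (SD, n = 6 each).

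Neither sex differences nor differences in ageing between the sexes passed for any of the 4. The female minus male differences were -0.09 ± 0.08 log2 for Slc2a1 (adjusted p = 0.871), -0.16 ± 0.17 for Slc16a3 (adjusted p = 0.902) and -0.04 ± 0.05 for Slc16a4 (adjusted p = 0.918), in a test that 0.101% of genes passed. Fitted in each sex alone, the slope of Slc16a3 was 2.15 ± 0.41 in males (edgeR, adjusted p = 0.0137; 1.16% of genes passed) and 2.22 ± 0.35 in females (adjusted p = 0.00319; 3.70% passed). The slope of Slc16a4 passed in females (-0.66 ± 0.13, adjusted p = 0.0112) and not in males (-0.42 ± 0.12, adjusted p = 0.102), where it passed with the share of reads in longer genes as a covariate (-0.40, adjusted p = 0.0417), but the difference between the sexes, -0.26 ± 0.17, did not pass (adjusted p = 0.879). The other interactions were -0.26 ± 0.23 for Slc2a1, -0.03 ± 0.30 for Slc16a1 and 0.05 ± 0.55 for Slc16a3 (adjusted p of 0.892, 0.992 and 0.996). No gene of the 16844 passed edgeR's interaction test (0% called), and 916 had an unadjusted p under 0.05. DESeq2 and limma-voom likewise called 0. With the share of reads outside genes as a covariate, the slopes fitted in females alone did not pass (1.89 for Slc16a3, adjusted p = 0.258, and -0.40 for Slc16a4, adjusted p = 0.721) in edgeR. In that fit 0 genes in all passed, against 623 in the main fit, so the loss was not particular to these genes.

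Of the 10 other SLC2 and 9 other SLC16 genes tested, 1 had a called slope, against 10.9% of all genes. Of 10 tested genes of the other SLC2 carriers, none passed for a slope by edgeR, DESeq2 or limma-voom and 2 had an unadjusted edgeR p under 0.05, with a median of 0.03 log2 against 0.03 for all genes. The most abundant of them per kb, the intracellular hexose carrier gene Slc2a8, stood at 53.0 ± 7.6 CPM at 2 months and 65.4 ± 5.1 CPM at 24 months (SD, n = 6 each; slope 0.12 ± 0.11, adjusted p = 0.487), and Slc2a12 at 18.6 ± 5.9 and 10.1 ± 4.0 CPM (slope -0.71 ± 0.34, adjusted p = 0.181). Of 9 tested other SLC16 genes, 1 fell, Slc16a13 (36.1 ± 6.1 CPM at 2 months, 28.3 ± 3.8 at 24 months; slope -0.33 ± 0.10, adjusted p = 0.0347), and the median of the list was -0.33 against 0.03 for all genes. That call was lost in 5 of the 30 edgeR fits that left out 1 library (adjusted p up to 0.0893). The slope of Slc16a9 (0.06 ± 0.15, adjusted p = 0.836) did not pass. Between 24 and 2 months, Slc16a11 rose by 0.72 log2 (edgeR adjusted p = 0.0343) and Slc16a6 fell by 1.11 log2 (adjusted p = 0.0203), both named here after their values were seen. These were the 2 of the 9 that passed this comparison, which 8.35% of all genes passed in either direction.

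Of the 4 tested genes for chaperones of these carriers and for sodium-coupled carriers, none passed by edgeR, DESeq2 or limma-voom, and 0 had an unadjusted edgeR p under 0.05. Bsg, which brings MCT1 and MCT4 to the membrane, was very abundant at 16204 CPM per kb and had a slope of -0.02 ± 0.09 (adjusted p = 0.928). Nptn, which encodes a relative of basigin, stood at 20.0 CPM per kb with a slope of 0.17 ± 0.12 (adjusted p = 0.359).

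Among 17 tested enzymes of glucose and lactate handling, 1 rose and 2 fell, against 5.72% and 5.21% of all genes, with a median slope of -0.01. Pdk1, a kinase that switches off pyruvate dehydrogenase and so directs pyruvate away from the mitochondrion, went from 20.6 ± 2.9 to 34.1 ± 7.0 CPM between 2 and 24 months (SD, n = 6 each; slope 0.81 ± 0.13, adjusted p = 8.50e-05). Ldhb, the lactate dehydrogenase subunit typical of oxidative tissue, fell from 95.4 ± 39.2 to 64.6 ± 3.5 CPM (slope -0.62 ± 0.17, adjusted p = 0.0154). Pdk3, another kinase of pyruvate dehydrogenase, fell with a slope of -0.38 ± 0.12 (adjusted p = 0.0321), a call lost in 4 of the 30 edgeR fits that left out 1 library (adjusted p up to 0.0796). Ldha, the subunit typical of glycolytic tissue and the most abundant of the list per kb, had a slope of 0.25 ± 0.11 that did not pass (adjusted p = 0.132) and a change between 24 and 2 months that did (0.35, adjusted p = 0.0439).

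Of 10 regulators of glucose transporter level and trafficking, 2 rose and none fell, against 5.72% and 5.21% of all genes, with a median slope of 0.05. Arrdc3, an arrestin-domain adaptor, had a slope of 0.82 ± 0.23 (adjusted p = 0.0182). Prkaa2, a catalytic subunit of the energy sensor AMPK, stood at 2.0 ± 1.1 CPM at 2 months and 3.71 ± 1.04 CPM at 24 months (SD, n = 6 each; slope 1.20 ± 0.40, adjusted p = 0.0477), a call lost in 22 of the 30 edgeR fits that left out 1 library (adjusted p up to 0.0911). Txnip, which promotes the removal of GLUT1 from the cell surface, had a slope of 0.21 ± 0.20 (adjusted p = 0.528), and the kinase gene Akt1 one of -0.02 ± 0.10 (adjusted p = 0.944). Between 24 and 2 months 1 of the 10 fell, Prkaa1, the other catalytic subunit gene of AMPK (-0.46, edgeR adjusted p = 0.0471), named after its value was seen. Of all genes 8.35% passed that comparison in either direction.

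The list of hypoxia-inducible factors and their targets, which bears on Slc16a3 as a known target, was mixed. Of 23 tested genes 5 rose and 2 fell, against 5.72% and 5.21% of all genes, with a median slope of 0.05. Ankrd37 rose from 51.38 ± 14.98 to 126 ± 44 CPM between 2 and 24 months (SD, n = 6 each; slope 1.17 ± 0.25, adjusted p = 0.00238), Adm, which encodes the vasodilator peptide adrenomedullin, from 44.2 ± 14.3 to 81.8 ± 27.9 CPM (slope 0.86 ± 0.19, adjusted p = 0.00325), and the mitophagy receptor gene Bnip3 from 27.4 ± 3.6 to 43.0 ± 12.3 CPM (slope 0.65 ± 0.14, adjusted p = 0.00234). P4ha2, a subunit of collagen prolyl hydroxylase, and Epas1, which encodes the endothelial factor HIF-2α, had slopes of 0.61 ± 0.19 (adjusted p = 0.0334) and 0.45 ± 0.13 (adjusted p = 0.0252). Bnip3l, a close relative of Bnip3, fell from 187 ± 16 to 130 ± 10 CPM (slope -0.45 ± 0.12, adjusted p = 0.0158), and Egln2, an oxygen-dependent hydroxylase of the factors, fell by 0.24 ± 0.08 (adjusted p = 0.0434). The stress-response gene Ndrg1, among the most abundant of the list, had a slope of -0.05 ± 0.15 (adjusted p = 0.880). Dropping single libraries in edgeR ended the calls of P4ha2, Epas1 and Egln2 in 8, 2 and 21 of 30 fits (adjusted p up to 0.0678, 0.0596 and 0.0787).

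Many calls of the list genes ended under other settings. Of the 13 list genes with a called slope, 3 kept their call when the share of reads outside genes, which was highest at 18 months, was a covariate, namely Pdk1, Adm and Bnip3. Without the 2-month libraries Pdk1, Adm and Arrdc3 kept theirs, and without the 18-month libraries Pdk1, Adm, Bnip3 and Ankrd37 did. The slopes of Slc16a3 and Slc16a4 passed in each of these fits.

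**Figure D4:**
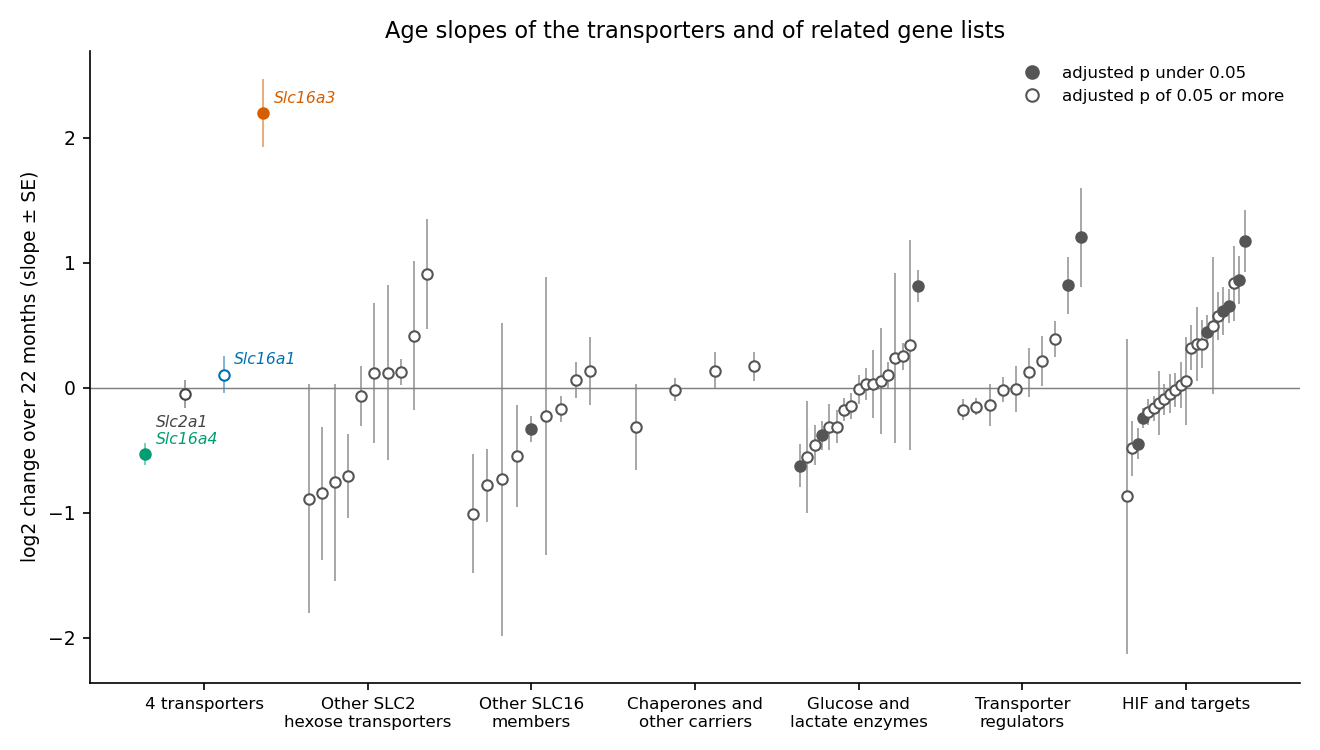
Age slope of each transporter and of every tested gene of 6 related lists, as the log2 change over 22 months (vertical axis) with SE bars, ordered by value within each list; filled points passed at an adjusted p under 0.05. Slc16a3, at 2.20, lies above every gene of the 6 lists, of which Prkaa2, at 1.20, is the highest.

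Vessel segment markers and markers of other cells also moved with age, and their part in the transporter values was not tested. The counts of markers below are to be read against 5.72% of all genes with a slope upward and 5.21% with one downward. The summed level of 8 capillary markers, 3 of which fell, went from 21240 ± 907 CPM at 2 months to 15453 ± 816 CPM in the 18-month and 15037 ± 1521 CPM in the 24-month libraries (SD, n = 6 each). The same ages had the lowest means of Slc16a4 and the highest of Slc16a3, while Slc2a1 had no slope that passed. Of 9 arterial markers 3 rose, and their sum went from 1021 ± 107 to 1955 ± 219 CPM between 2 and 24 months. Of 8 venous markers 3 rose and 1 fell, and their sum was 1479 ± 236 and 1219 ± 265 CPM. Of 12 general endothelial markers 1 rose and 2 fell, with sums of 21412 ± 1429 and 20085 ± 1235 CPM.

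Among other cells, 4 of 9 pericyte markers and 2 of 6 smooth muscle markers rose, with sums of 610 ± 123 and 814 ± 254 CPM and of 161 ± 102 and 247 ± 120 CPM at 2 and 24 months. In the other direction 4 of 9 astrocyte markers and 3 of 7 choroid plexus markers fell, with sums of 785 ± 301 and 467 ± 137 CPM and of 2829 ± 1390 and 1380 ± 733 CPM. In either direction DESeq2 called 5 astrocyte and 3 choroid plexus markers, and limma-voom 6 and 0. None of the tested markers of fibroblasts (6), oligodendrocytes (7), neurons (7), microglia (7), border macrophages (6) or erythroid cells (6) passed in edgeR's slope test, 4 of these 39 had an unadjusted p under 0.05, and DESeq2 called 1, a fibroblast marker, and limma-voom 0. Neutrophils, a type of leukocyte known to express MCT4, had 4 tested markers of 7, of which Retnlg rose in edgeR's slope test. All 4 had an unadjusted edgeR p under 0.05, as did 4349 of the 16844 genes tested. DESeq2 called 2 and limma-voom 3 of the 4, and their median slope was 4.16 log2. The summed level of the 7 markers was 0.0745 to 1.34 CPM in the 2-month libraries, 0 to 47.3 CPM in those of 18 months and 1.04 to 4.86 CPM in those of 24 months. Mmp8 and Ngp were at 0 in 22 of 30 libraries each. In the male 18-month libraries the sum was 7.36, 47.3 and 0 CPM (replicates 1, 2 and 3), with Slc16a3 at 13.4, 13.0 and 7.64 CPM. In the female 18-month libraries it was 9.76, 1.29 and 2.33 CPM, with Slc16a3 at 8.12, 8.73 and 6.40 CPM. In the male 24-month libraries the sum was 4.77, 2.61 and 4.86 CPM, with Slc16a3 at 14.6, 10.8 and 8.63 CPM. In the female 24-month libraries it was 1.26, 1.76 and 1.04 CPM, with Slc16a3 at 9.40, 12.4 and 10.3 CPM. The part of neutrophils in the Slc16a3 values was not tested.

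The genes whose levels most resembled each transporter across the 30 libraries are given as a description, by Pearson's r of log2 CPM, since the libraries share ages, sexes and depth. Slc2a1 was most like Tbc1d15 (r = 0.81), the amyloid precursor gene App (0.81), Nrbp1 (0.80), the caveolar coat gene Cavin2 (0.80) and the early endosome gene Rab5a (0.78). After the mean of each age and sex was removed these were 0.80, 0.79, 0.81, 0.90 and 0.79. Slc16a1 was most like Nudt4 (0.74), Tmed7 (0.70), 5730409E04Rik (0.69), Cep76 (0.67) and Bcas3 (0.67), and with group means removed these fell to between 0.35 and 0.56.

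Slc16a3 was most like the copper ferroxidase gene Cp (0.86), Vps13c (0.85), the taurine transporter gene Slc6a6 (0.85), the neuronal nitric oxide synthase gene Nos1 (0.84) and Nhsl2 (0.83), with 0.19, 0.34, 0.49, 0.44 and 0.31 once group means were removed. Each of these 5 had a slope upward that passed, from 0.77 for Slc6a6 to 2.45 for Nos1, against 5.72% of all genes. Slc16a4 was most like Lims1 (0.90), the TGF-beta pseudoreceptor gene Bambi (0.90), the catalase gene Cat (0.89), the matrix protein gene Sparc (0.89) and the kinase gene Lyn (0.89), with 0.47, 0.44, 0.51, 0.52 and 0.56 once group means were removed. Each of these 5 had a slope downward that passed, from -1.34 for Bambi to -0.51 for Cat, against 5.21% of all genes. Both sets were picked by likeness over libraries that differ in age. Slopes in the direction of the member therefore follow from that choice and are no separate support. Between Slc16a3 and Slc16a4 r was -0.68, and 0.17 with group means removed, and for Slc2a1 and Slc16a1 the values were 0.40 and 0.22.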

How the data were processed

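The deposited values are whole-number read counts per gene, one file per library, from RNA amplified with SMART-Seq v4 and made into Nextera XT libraries, per the labels' protocols, a kit that keeps no strand. Per the submitters' processing notes, the builds GRCm38 and mm10 and the tools STAR 2.5.2b, HTSeq, FastQC 0.11.4 and MultiQC were named. Some libraries were sequenced as single reads on another instrument, per the labels' protocols, but the sources used here do not say which. The instrument could therefore not be used as a covariate, and whether it coincides with an age is not known. The counts of either strand were used, and the forward-strand column held 49.7 to 50.0% of the stranded counts. Library sizes exclude 4 summary lines without a gene, which held per library unmapped (2.51 to 6.26%), multimapping (8.64 to 13.3%), outside-gene (3.82 to 13.1%) and ambiguous reads (3.61 to 4.21%).

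Of 48795 genes, 16844 passed edgeR's filterByExpr with ages as groups (at least 10 counts, and 15 in total), and 31951 were put aside. Counts were scaled by TMM and tested with edgeR 4.0.16's quasi-likelihood test in R 4.3.3 (limma 3.58.1, DESeq2 1.42.0), with age as a number or a factor and sex as covariate, as the design text describes for the slope, and p-values were adjusted by Benjamini-Hochberg over all genes tested. Neighbouring ages in the order of levels were compared by exact two-sided permutation tests of log2 CPM, with numpy 2.4.6, pandas 2.3.3 and scipy 1.17.1, and plots were drawn with matplotlib 3.10.9. The pipeline was tested on simulated data. Symbols came from a list of gene names, which matched 48349 identifiers without version, and otherwise from GENCODE M21 on GRCm38. Exon lengths came from GENCODE M21, which matched 48435 identifiers. Detection floors cover counting error only. The design text calls the libraries of an age biological replicates, and whether each is 1 mouse or a pool is not stated, so p-values measure the spread between libraries. Named genes were the 4 members, each list gene with a called slope, the 2 list genes of highest CPM per kb, and the 5 genes most correlated with each member; 1 list gene that this rule names is not reported here. The members and lists were chosen with earlier results of these data known. Alternatives were other scalings, tests, filters, strand columns, covariates and left-out libraries or ages; leaving out the 3 female 6-month libraries, and the correlations under another scaling, were added after seeing the data.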

Additional observations from a re-analysis of the deposited data

Results flagged for a closer look

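Of 20 groups of 6 libraries, the 5 ages of each of the 4 genes, 1 held a library that stood apart from its group by Dixon's test (critical value 0.625). It was the lowest library of Slc2a1 at 12 months, a male library (replicate 1) at 3897.69 CPM, while the other 5 libraries of that age held 4754 to 4935 CPM. Chance flags about 1 in 20 groups. The same library had 46.6% of its reads in genes longer than the median, against 51.2 to 56.2% in the other male 12-month libraries. It also had the highest summed markers of oligodendrocytes (1955 CPM) and of choroid plexus (6962 CPM) and the highest share of unmapped reads (6.26%) of the 30 libraries. The part of these in its Slc2a1 level was not tested.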

How the results depend on the processing

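The slopes of Slc16a3 (1.79 to 2.49) and Slc16a4 (-0.81 to -0.33) kept their direction and their call in 14 alternatives and in 30 fits without 1 library each, and so did their changes between 24 and 2 months in 12 alternatives (2.26 to 2.46 and -0.52 to -0.39) and those 30 fits. Slc2a1 and Slc16a1 passed in none of these, and their signs were not fixed. With the share of reads outside genes as a covariate, the slope of Slc2a1 was 0.092, its change between 24 and 2 months 0.028, the sex difference of Slc16a4 0.0077, the interactions of Slc16a1 and Slc16a3 0.17 and -0.20, and the slopes of Bsg, Akt1 and Ndrg1 0.15, 0.043 and 0.22. With the share in longer genes as a covariate Bsg and Ndrg1 stood at 0.073 and 0.14.

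Without the 2-month libraries the slope of Slc2a1 was 0.083, those of Slc2a12, Slc16a9, Nptn and Akt1 0.23, -0.14, -0.032 and 0.11, and the interactions of Slc16a1 and Slc16a3 0.65 and -0.055. Without the 18-month libraries Bsg, Akt1 and Ndrg1 had slopes of 0.034, 0.0054 and 0.084. Without the 24-month libraries the slopes of Slc16a1, Slc2a8, Slc16a9 and Txnip were -0.24, -0.22, -0.15 and -0.18, and the interactions of Slc2a1 and Slc16a3 0.03 and -0.10. Without the 3 female 6-month libraries Slc16a1, Bsg and Ndrg1 had slopes of -0.00065, 0.021 and 0.11. Akt1 was at 0.0057 with forward-strand counts, the interaction of Slc16a3 at -0.0056 with upper-quartile scaling and -0.11 with reverse-strand counts, and that of Slc16a1 at 0.03 with limma-voom. Leaving out 1 library moved the interactions of Slc16a1 between -0.21 and 0.17 and of Slc16a3 between -0.12 and 0.40, and the slopes of Akt1 between -0.054 and 0.0087, Bsg between -0.062 and 0.0049, Ndrg1 between -0.12 and 0.0047 and Slc16a9 between -0.015 and 0.13. None of these sign changes passed a test, and the cause was not tested.

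The number of genes with a called slope, 1842 (964 higher, 878 lower), was 402 (264 and 138) with the outside-gene share, 940 (331 and 609) without the 2-month and 726 without the 18-month libraries, and 1308 to 2021 without 1 library. Between 24 and 2 months 1406 became 2205 with the longer-gene share and 1029 to 1493 without 1 library. For the departure from a straight line 2990 became 904 with the outside-gene share, 1468 with the longer-gene share, 1708 without the female 6-month libraries and 1878 to 3724 without 1 library. For sex 17 became 55 by DESeq2, 37 with the longer-gene share, 10 and 8 without the 18- and 24-month libraries, 32 without the female 6-month libraries and 14 to 27 without 1 library. For the interaction 0 became 7 with no filter on low counts and 0 to 1 without 1 library. Under another scaling the median change of all genes between 24 and 2 months, 0.0092, was -0.0035 and 0.031. No paired analysis was possible because the labels carry no replicate numbers shared between groups. The low counts of Slc16a3 at 2 months, 42 to 86 reads a library, limit its precision there.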
